A study of Sus scrofa with 6 samples.

Results

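The genes described here are 7 that start the unfolded protein response or the integrated stress response. They are the membrane sensors ATF6, ATF6B and ERN1 (the gene of IRE1), the transcription factor XBP1, and the eIF2alpha kinases EIF2AK1 (HRI), EIF2AK3 (PERK) and EIF2AK4 (GCN2). They were chosen by name and role and matched by gene symbol. Each matched 1 of the 35670 pig Ensembl identifiers in the count table, and all 7 were among the 14242 genes with enough reads to be tested. RNA was sequenced from primary pig (Sus scrofa) granulosa cell cultures, grown from the follicle cells that nurse the oocyte in small healthy follicles. Once largely confluent, the cultures were moved to 42 °C (heat, n = 3) or left at 37 °C (control, n = 3) for 6 h, in the same serum-containing medium. The samples of a group are labelled as biological replicates. Whether each came from its own animal or its own culture is not stated, so p-values measure the spread between these samples, which may be technical. The labels name no genotype, strain, animal age or sex.

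The unfolded protein response senses unfolded protein in the endoplasmic reticulum (ER). BiP, the product of HSPA5, binds the lumenal side of its sensors and leaves them when unfolded protein accumulates. ATF6 and its relative ATF6B then move to the Golgi, where proteases release a transcription factor. IRE1 becomes an RNase that removes a short intron from XBP1 mRNA, which gives the active factor. PERK phosphorylates eIF2alpha, which lowers general translation and favours that of ATF4. HRI, known for sensing heme shortage and mitochondrial stress, and GCN2, known for sensing amino acid shortage, phosphorylate the same substrate from the cytosol and are not ER sensors. Gene counts measure none of the cleavage, splicing or phosphorylation steps, so the values below are RNA levels of the genes alone.

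The libraries held between 18711440 and 29606378 counts. Likeness within a group was uneven. Control 2 and control 3 correlated at 0.990 across genes (Pearson, log2 CPM, where CPM is a gene's reads relative to the library's TMM-scaled size), and heat 1 and heat 2 at 0.991. Control 1 correlated at 0.901 and 0.905 with the other controls, and heat 3 at 0.916 and 0.909 with the other heat libraries. Control 1 and heat 3 correlated at 0.920 with each other. These correlations are across genes, which are not replicates, and serve as a description. A gene is called here where its edgeR adjusted p for heat against control was below 0.05. Of all tested genes, 6.71% were called higher in heat and 4.32% lower. Among granulosa cell markers, 9 of 14 matched genes were tested and none was called. CYP11A1 and INHBA were well covered, while AMH had 17 reads and INHA 10 over all 6 libraries. FSHR had 6, 49 and 15 reads in the controls and 0, 2 and 0 in heat. Every heat library lay above every control for CYP11A1 and GATA4 and below every control for INHBA (20.9 and 16.8% of all tested genes did so). Stromal markers differed widely: 7 tested genes summed to between 6698 and 59118 CPM in controls and between 28082 and 87925 CPM in heat, with control 1 above heat 3. Of 3 tested leukocyte markers LYZ was called lower, with 0.467, 26.3 and 54.1 CPM in controls and 0.848, 0.186 and 0.244 CPM in heat. Control 1 thus lay among the heat libraries for LYZ. The other tested leukocyte markers, CD68 and CD14, were not called and their groups overlapped, with log2 fold changes of -0.77 and 0.08. PTPRC had 0, 35 and 64 reads in the controls and 0 in every heat library. Of 4 tested epithelial markers KRT8 and UPK3B were called higher, UPK3B from 3, 5 and 4 reads in the controls. UPK1B went the other way and was not called, with 1.20, 2.18 and 2.18 CPM in controls and 0.648, 0.558 and 0.183 CPM in heat. The list summed to between 6.11 and 23.4 CPM in controls and between 20.6 and 109 CPM in heat. KRT7, not called, made up most of the sum in heat 1 and heat 2 (61.7 and 95.4 CPM) but not in heat 3 (7.76 CPM). The defining theca gene INSL3 and the endothelial gene CDH5 had 0 reads in every library, but other markers of their lists had reads. The endothelial gene PECAM1 had 116, 197 and 191 reads in the controls and 216, 213 and 171 in heat, and was not called. KDR had 7 reads and TEK 12 over all 6 libraries. In the theca list STAR had 79 reads, ENG 69, LHCGR 11 and CYP17A1 8.

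The comparison of heat with control asks which genes of these cells respond to heat. None of the 7 genes passed the test (edgeR quasi-likelihood test, Benjamini-Hochberg adjusted p below 0.05 over all tested genes), against 11% of all tested genes (6.71% higher and 4.32% lower). The direction of the estimates was not shared: 6 of the 7 had a log2 fold change above 0, against 52.1% of all genes, and ATF6 had one below 0. ERN1, ATF6B and EIF2AK3 had the largest positive estimates, and that of EIF2AK4 was near 0. At an unadjusted p below 0.05 there were 2, ERN1 and ATF6B, against 33.9% of all genes. DESeq2 called 1 of the 7, ERN1, against 21.5% of the genes it tested, and limma-voom called 0, against 11%. The median log2 fold change of the 7 was 0.54, against 0.05 over all tested genes. Groups did not overlap for 4 of the 7, with ATF6B, XBP1 and EIF2AK1 higher and ATF6 lower in heat, against 37.8% of all genes (20.9% higher and 16.8% lower). Without control 1 edgeR called 3 of the 7 higher, ATF6B, ERN1 and EIF2AK1, against 31.9% of all genes (19.6% higher and 12.3% lower). Without heat 3 edgeR called 2 of the 7 higher, ATF6B and ERN1, against 36.1% of all genes (18.4% higher and 17.7% lower). Neither fit called any of the 7 lower. None of the 7 passed when any other library was dropped, against 0% of all genes for control 2 and for control 3, 0.0475% for heat 1 and 0.0406% for heat 2. In bulk RNA, fewer cells of a type and less RNA per cell cannot be told apart.

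**Figure D1:**
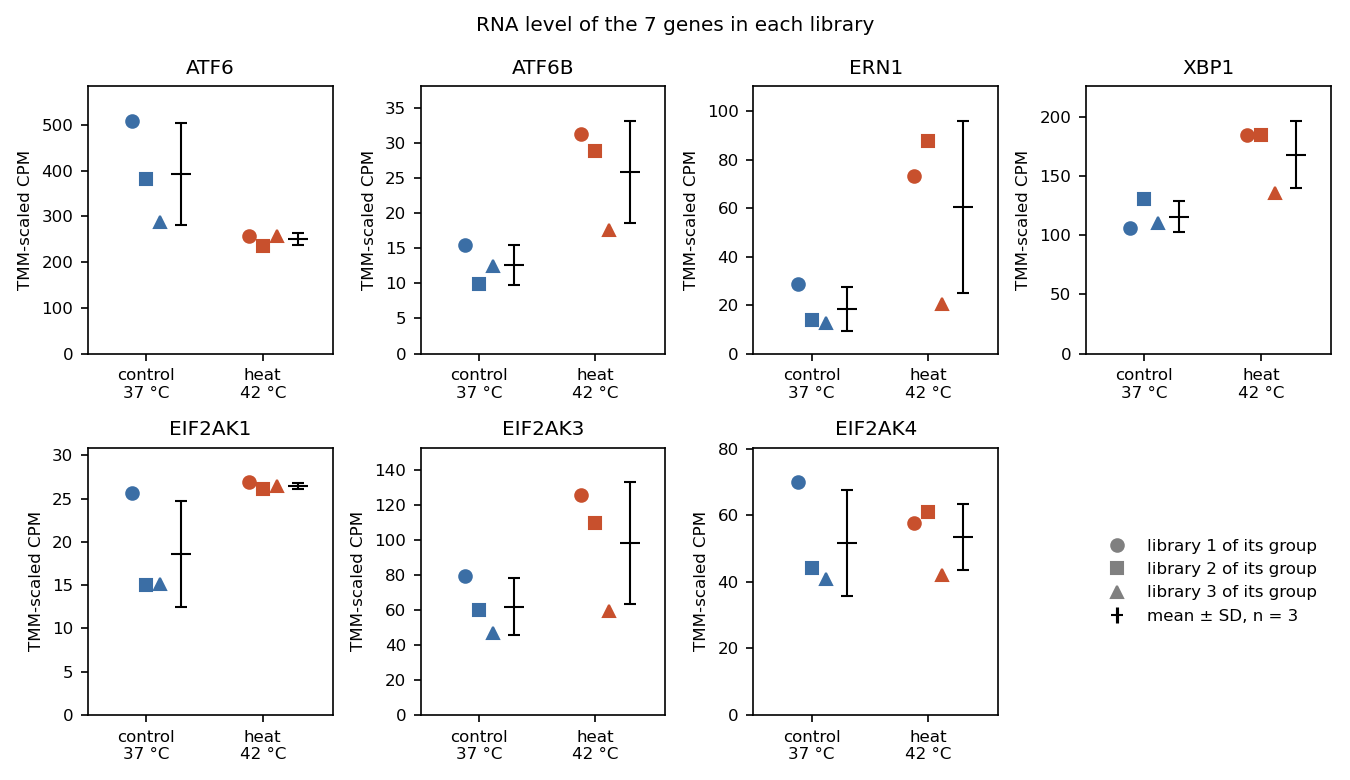
Level (TMM-scaled CPM) of the 7 genes in each of 3 control libraries (blue) and 3 heat libraries (red), with mean ± SD beside each group. The 3 heat libraries lie below the controls for ATF6 and above them for ATF6B, XBP1 and EIF2AK1, while the groups overlap for ERN1, EIF2AK3 and EIF2AK4.

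ATF6 lies on chromosome 4 of Sscrofa11.1 at 88591279 to 88806156 (ENSSSCG00000006346). It stood at 508, 382 and 287 CPM in control 1, 2 and 3 and at 257, 235 and 257 CPM in heat 1, 2 and 3. Every heat library lay below every control, and the heat libraries were close together while the controls spread over a wide range. The mean was 392 ± 111 CPM in controls and 250 ± 12.8 CPM in heat (SD, n = 3). The log2 fold change was -0.65 ± 0.35 (SE), a fold of 0.636 with a 95% interval of 0.364 to 1.11, and it did not pass (edgeR adjusted p = 0.220). The separation rests on a small gap, from 257 CPM in heat 3 to 287 CPM in control 3. It was present under each of 5 scalings, among them the authors' own normalized signal, where control 3 stood at 6261 and the highest heat library, heat 1, at 5700. An annotated pseudogene, LOC100154887, lies inside the span of ATF6 and is not analysed here.

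ATF6B, which encodes a second ER-anchored factor of the same family, lies on chromosome 7 at 24153551 to 24171743 (ENSSSCG00000001430). Its levels were 15.6, 9.96 and 12.4 CPM in control 1, 2 and 3 and 31.3, 28.9 and 17.7 CPM in heat 1, 2 and 3. All heat libraries were above all controls under each of the 5 scalings, and heat 3 was the lowest of the heat libraries. The mean was 12.7 ± 2.81 CPM in controls and 25.9 ± 7.26 CPM in heat (SD, n = 3). The estimated fold was 2.05, with a 95% interval of 1.19 to 3.53, and the gene did not pass over all genes (log2 fold change 1.04 ± 0.34, edgeR adjusted p = 0.0790). Without control 1 or without heat 3 it passed, with edgeR adjusted p-values of 0.0422 and 0.0210. The start of the ATF6B span overlaps the end of TNXB, a matrix gene at 24088873 to 24155815, and the sources used here do not give the strand setting of the counting. TNXB stood at 7.08, 0.393 and 0.298 CPM in the controls and 44.1, 60.2 and 20.4 CPM in heat. Whether reads of TNXB were counted for ATF6B was not tested.

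The genes that process or accompany ATF6, and its relatives among ER-anchored factors, showed no call either, against 11% of all tested genes. Of 10 tested, 7 had a log2 fold change above 0, against 52.1% of all genes. The list median was 0.72, against 0.05. MBTPS1, the site-1 protease that cuts ATF6 first, stood at 102, 32.0 and 36.0 CPM in controls and 101, 103 and 69.2 CPM in heat, so control 1 was as high as the heat libraries. MBTPS2, the site-2 protease, matched no symbol. The estimate for CREB3L2, a related ER-anchored factor, was 1.14 ± 0.56 (edgeR adjusted p = 0.189), and control 1 was again close to the heat libraries: 220, 56.0 and 62.9 CPM in controls and 259, 274 and 212 CPM in heat. CREB3L4 was below 1 CPM in 5 of the 6 libraries, with a mean of 0.466 ± 0.120 CPM in controls and 0.965 ± 0.816 CPM in heat (SD, n = 3).

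ERN1, the gene of IRE1, lies on chromosome 12 at 14881913 to 14963290 (ENSSSCG00000039909). It stood at 28.8, 13.9 and 12.5 CPM in control 1, 2 and 3 and at 73.2, 87.9 and 20.4 CPM in heat 1, 2 and 3. Heat 1 and heat 2 were far above all other libraries, and heat 3 lay below control 1, so the groups overlapped. The mean was 18.4 ± 9.01 CPM in controls and 60.5 ± 35.5 CPM in heat (SD, n = 3). This was the largest estimate of the 7, a fold of 3.29 with a 95% interval of 1.27 to 8.48 (log2 fold change 1.72 ± 0.59, edgeR adjusted p = 0.0890). It passed with DESeq2 (adjusted p = 0.0281). It also passed in edgeR without control 1 and without heat 3, with adjusted p-values of 0.0469 and 0.0186 and log2 fold changes of 2.17 and 2.11. The summed stromal markers placed the libraries in a similar order: heat 1, heat 2, control 1, heat 3, control 2 and control 3 from high to low, against heat 2, heat 1, control 1, heat 3, control 2 and control 3 for ERN1. Most of the stromal sum came from COL1A1, COL1A2 and COL3A1. The order is not particular to ERN1: SYVN1 and WFS1, described below, also had control 1 above heat 3 and heat 3 above the other controls. The part of cell composition in the ERN1 difference was not tested.

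XBP1, the substrate of IRE1, lies on chromosome 14 at 46011239 to 46016526 (ENSSSCG00000030996), and its counts pool the spliced and unspliced forms. It stood at 107, 131 and 111 CPM in controls and at 185, 185 and 136 CPM in heat 1, 2 and 3. Heat 1 and heat 2 had the same level, and heat 3 was just above the highest control, control 2. The mean was 116 ± 12.9 CPM in controls and 168 ± 28.5 CPM in heat (SD, n = 3), and the gene did not pass (log2 fold change 0.54 ± 0.30, edgeR adjusted p = 0.236). The interval of the fold ran from 0.898 to 2.35. The separation of the groups depended on the scaling: with RLE factors heat 3 (128 CPM) lay below control 2 (133 CPM), and with upper-quartile factors it lay below it as well, at 123 against 129 CPM. XBP1 had the smallest spread within controls of the 7 genes, with a coefficient of variation of 11.14%, against a median of 30.8% over all tested genes.

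None of 12 tested partners of IRE1 passed, against 11% of all tested genes. The list holds the ligase complex that joins XBP1 mRNA, adaptors of IRE1 and proteins that restrain it. The list's median log2 fold change was 0.59, against 0.05 over all tested genes. SYVN1, an ER ubiquitin ligase, stood at 28.8, 3.89 and 4.81 CPM in controls and 80.7, 88.1 and 23.3 CPM in heat, with control 1 above heat 3 as for ERN1 (log2 fold change 2.36 ± 0.87, edgeR adjusted p = 0.104). WFS1, an ER membrane protein, had a similar order, with 134, 9.69 and 12.5 CPM in controls and 231, 224 and 82.0 CPM in heat, and an estimate of 1.78 ± 1.00 (edgeR adjusted p = 0.241). ERN2, the IRE1 paralogue of mucosal epithelia, had too few reads to be tested. Without control 1 edgeR called 5 of these partners higher and 3 lower, against 19.6 and 12.3% of all genes. Without heat 3 it called 2 higher and 2 lower, against 18.4 and 17.7%.

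**Figure D2:**
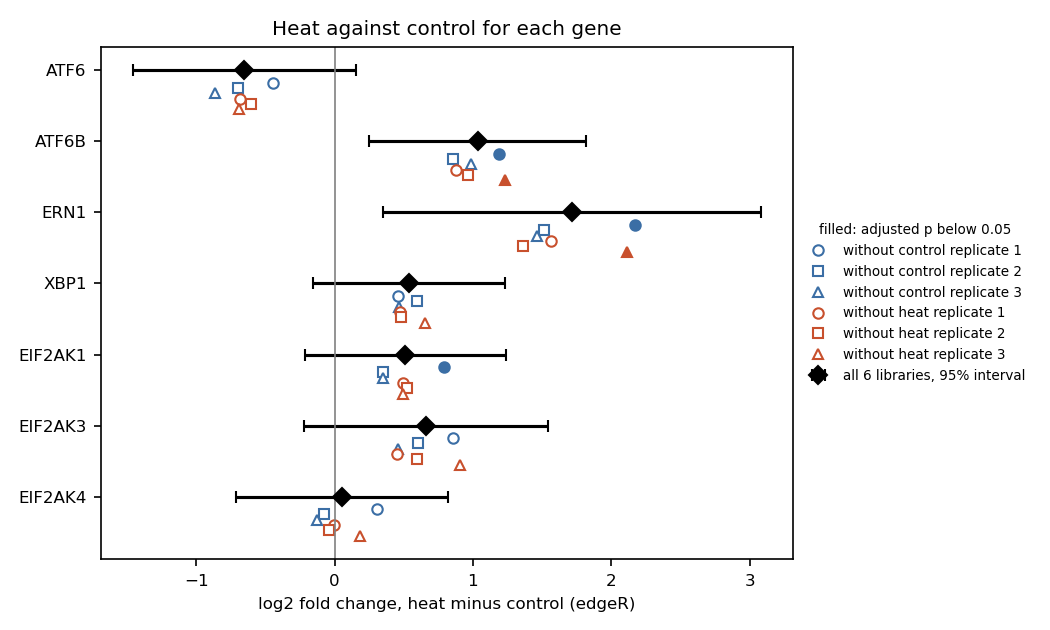
Log2 fold change, heat minus control, of the 7 genes from edgeR with all 6 libraries (diamonds with 95% intervals) and with each library left out in turn (smaller symbols, filled where the adjusted p was below 0.05). ATF6 stays below 0 and ATF6B, ERN1, XBP1, EIF2AK1 and EIF2AK3 stay above 0 in all 6 fits that leave out a library, while EIF2AK4 takes both signs.

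EIF2AK3, the gene of PERK, lies on chromosome 3 at 57423894 to 57506247 (ENSSSCG00000008208). It stood at 79.3, 59.7 and 46.7 CPM in control 1, 2 and 3 and at 126, 110 and 59.2 CPM in heat 1, 2 and 3. Heat 3 lay within the range of the controls, and heat 1 and heat 2 lay above it. The mean was 61.9 ± 16.4 CPM in controls and 98.1 ± 34.6 CPM in heat (SD, n = 3). The fold was 1.59, with a 95% interval of 0.860 to 2.92, and it did not pass (log2 fold change 0.66 ± 0.38, edgeR adjusted p = 0.248).

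EIF2AK1, the gene of HRI, lies on chromosome 3 at 5075026 to 5113390 (ENSSSCG00000007592). It stood at 25.6, 15.0 and 15.1 CPM in the controls and at 26.9, 26.1 and 26.4 CPM in heat 1, 2 and 3. Heat libraries were nearly equal, with a coefficient of variation of 1.42%, and control 1 lay just below them, far from the other controls. The fold was 1.43 with a 95% interval of 0.862 to 2.36 (edgeR adjusted p = 0.277). Without control 1 the gene passed, with a log2 fold change of 0.79 against 0.51 with all libraries (edgeR adjusted p = 0.0403). With RLE factors, upper-quartile factors or the authors' signal the groups overlapped, since control 1 then stood above heat 3. AIMP2 and ANKRD61 overlap the span of EIF2AK1. AIMP2 lay between 4.41 and 6.00 CPM in controls and between 6.73 and 8.83 CPM in heat, and ANKRD61 had too few reads to be tested.

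EIF2AK4, the gene of GCN2, lies on chromosome 1 at 131244818 to 131355240 (ENSSSCG00000039061). It stood at 69.8, 44.2 and 40.7 CPM in control 1, 2 and 3 and at 57.6, 60.8 and 42.2 CPM in heat 1, 2 and 3. Control 1 was the highest library and control 3 the lowest, with heat in between. The log2 fold change was 0.05 ± 0.33 (edgeR adjusted p = 0.922), and its sign changed when control 2, control 3, heat 1 or heat 2 was left out. The 95% interval of the fold, 0.611 to 1.76, covers changes of moderate size in either direction. SRP14, a signal recognition particle gene that overlaps the EIF2AK4 span, stood at 31.0, 51.6 and 59.5 CPM in controls and 11.6, 13.4 and 54.7 CPM in heat, an order unlike that of EIF2AK4.

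The other kinase of eIF2alpha, EIF2AK2 (PKR, which senses double-stranded RNA and is induced by interferon), fell. It stood at 137, 507 and 445 CPM in control 1, 2 and 3 and at 41.4, 46.2 and 109 CPM in heat 1, 2 and 3. These groups did not overlap, but control 1 and heat 3 were close. The log2 fold change was -2.47 ± 0.62 (edgeR adjusted p = 0.0458). DELE1, a mitochondrial protein that activates HRI, rose from 5.58 ± 0.206 to 12.5 ± 2.60 CPM (SD, n = 3; edgeR adjusted p = 0.0483). These were the 2 calls among 14 tested activators, inhibitors and phosphatases of the kinases, against 11% of all tested genes, and the list's median log2 fold change was -0.20. DNAJC3, an ER inhibitor of PERK and PKR, stood at 190, 145 and 116 CPM in controls and 351, 355 and 184 CPM in heat (edgeR adjusted p = 0.124). PPP1R15A (GADD34), which returns eIF2alpha to its unphosphorylated form, stood at 15.2, 11.2 and 14.1 CPM in controls and 21.7, 22.4 and 14.5 CPM in heat (edgeR adjusted p = 0.247). For DNAJC3 and PPP1R15A alike, heat 3 lay among the controls. Neither EIF2AK2 nor DELE1 passed when control 2, control 3, heat 1 or heat 2 was left out, with edgeR adjusted p-values from 0.156 to 0.194. In those 4 fits edgeR called 0, 0, 7 and 6 of all tested genes. DELE1 also missed the threshold with RLE or upper-quartile factors, no filter, limma-voom and the replicate block (adjusted p from 0.0507 to 0.0693).

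Genes of the kinase substrate eIF2 and of eIF2B, its exchange factor, had mostly negative estimates. The list also holds EIF2A, an initiation factor that is a subunit of neither (log2 fold change -1.21 ± 0.45, edgeR adjusted p = 0.107). None of 7 tested, EIF2A among them, passed, against 11% of all tested genes. The median log2 fold change was -0.83, against 0.05 over all genes, and 1 of the 7 was above 0, against 52.1%. EIF2S2, the beta subunit of eIF2, stood at 180, 332 and 334 CPM in controls and 52.7, 50.6 and 191 CPM in heat, so heat 3 lay above control 1 (log2 fold change -1.52 ± 0.60, edgeR adjusted p = 0.120). EIF2B4, a regulatory subunit of eIF2B, had the one positive estimate, with 11.4, 13.8 and 13.7 CPM in controls and 35.2, 34.965 and 20.2 CPM in heat (log2 fold change 1.21 ± 0.32, edgeR adjusted p = 0.0502). EIF2B4 passed with DESeq2, with a filter of 10 CPM in 3 libraries, on reads recovered from the authors' signal and with scaling by library totals alone, among other settings. It did not pass with RLE or upper-quartile factors, no filter, limma-voom, either form of the authors' signal or near-identical libraries summed. Nor did it pass in edgeR when control 2, control 3, heat 1 or heat 2 was left out.

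The reads of a gene pair within a library can be compared without any scaling, since their ratio does not change with it. A change of that ratio between groups also does not depend on gene length. The ratio of ATF6 to each of the other 6 genes was lower in every heat library than in every control. For ATF6 to ATF6B the log2 ratio was 5.03, 5.26 and 4.53 in the controls and 3.04, 3.02 and 3.86 in heat 1, 2 and 3, a mean difference of -1.63. For ATF6 to EIF2AK3 it was 2.68, 2.68 and 2.62 in the controls, a narrow range, and 1.03, 1.10 and 2.12 in heat, a difference of -1.24. The ratio of ATF6 to EIF2AK1 was the most even within heat, at 3.26, 3.17 and 3.28, against 4.31, 4.67 and 4.24 in the controls. For ATF6 to XBP1 the log2 ratio was 2.25, 1.55 and 1.37 in the controls and 0.47, 0.34 and 0.92 in heat. The mean difference ranged from -2.18 for ATF6 to ERN1 to -0.69 for ATF6 to EIF2AK4. An exact two-sided permutation test over the 6 libraries gives p = 0.1 for each of these 6 pairs, the smallest value that 3 against 3 allows. The same was true of ATF6 against 39% of 14024 genes that had reads in every library, so the separation is not particular to these partners.

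**Figure D3:**
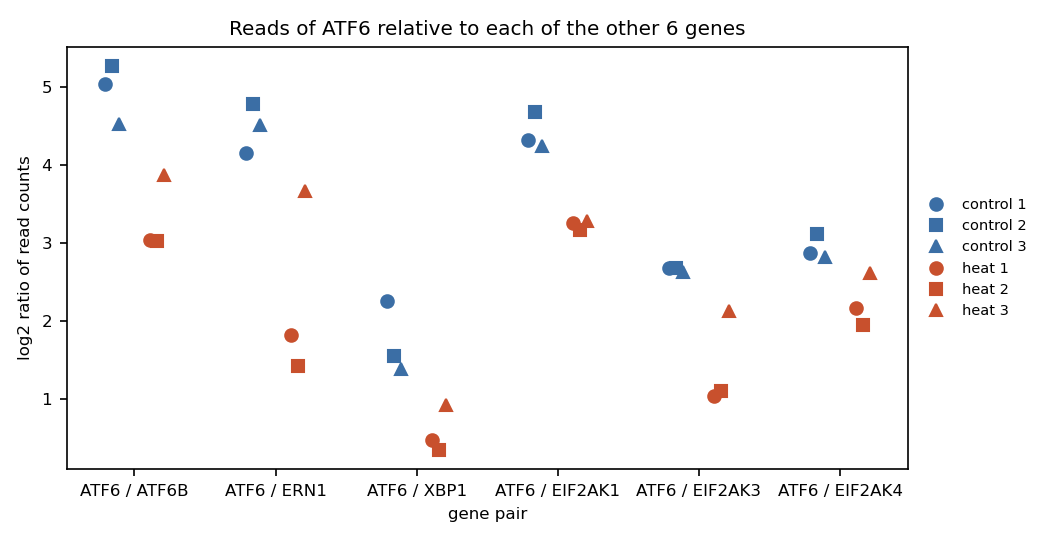
Log2 ratio of the reads of ATF6 to those of each of the other 6 genes in the 3 control libraries (blue) and the 3 heat libraries (red). In all 6 pairs the heat libraries lie below the controls, and heat 3 is the heat library nearest to them.

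Of all 21 pairs among the 7 genes, 11 were separate between groups. Besides the 6 with ATF6 these were the 5 pairs of EIF2AK4 with ATF6B, ERN1, XBP1, EIF2AK1 and EIF2AK3, where EIF2AK4 was relatively lower in heat. For EIF2AK3 to EIF2AK4, PERK to GCN2, the log2 ratio was 0.18, 0.43 and 0.20 in the controls and 1.12, 0.85 and 0.49 in heat. All 11 pairs hold ATF6 or EIF2AK4, so they are not 11 separate observations. The ratio of EIF2AK4 to another gene was lower in every heat library than in every control for 22.9% of the 14024 genes. Over the 7 genes this share ran from 2.74% for ERN1 to 39% for ATF6. The share with a higher ratio in every heat library ran from 3.28% for ATF6 to 34.7% for ATF6B. The other 10 pairs overlapped, among them ERN1 to XBP1, with -1.89, -3.23 and -3.14 in the controls and -1.34, -1.07 and -2.74 in heat. The ratio of XBP1 to EIF2AK3 differed by -0.10 between groups, less than its spread within controls (SD 0.44).

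As a description of pattern, each of the 7 genes was set beside 9749 tested genes with a symbol and a mean of at least 1 log2 CPM. Likeness was the root mean square difference of log2 CPM over the 6 libraries, with each gene centred on its own mean. The closest gene to ATF6 was HACD2, a fatty acid elongation enzyme, at a difference of 0.03. HACD2 stood at 487, 363 and 269 CPM in controls and 255, 226 and 255 CPM in heat, with control 1 highest, as for ATF6. LRP12 came next to ATF6, at 0.07. ATF6B was closest to CEBPB, a stress-responsive transcription factor, at 0.05, and then to CYB561. ERN1 was closest to POMT1, an ER mannosyltransferase, but at a larger difference of 0.13. XBP1 was closest to GORASP1, a Golgi stacking protein, and RSC1A1. For the kinases the closest genes were YY1 and DHX32 to EIF2AK1, MEST and TMEM43 to EIF2AK3, and DHX16 and KMT5B to EIF2AK4. Among the 7 themselves, ATF6B and EIF2AK3 were the most alike (0.29), and ATF6 and ERN1 the least alike (1.30).

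Of 97 listed genes around the sensors, the 7 not among them, 91 were tested, 6 rose and 2 fell. These calls are 8.79% of the 91, below the 11% of all tested genes. Of 34 tested targets of ATF6 and spliced XBP1, 5 rose, 1 fell and 28 did not pass, against 6.71% of all tested genes higher and 4.32% lower, and the list's median log2 fold change was 0.81, against 0.05. Of 12 tested genes of BiP and the proteins that act with it, 2 rose and 10 did not pass, against the same shares. Whether these lists differ from all genes was not tested. HSPA5, the gene of BiP, stood at 1523, 886 and 722 CPM in control 1, 2 and 3 and at 14496, 13400 and 3118 CPM in heat 1, 2 and 3. Heat 3 was above every control but far below heat 1 and heat 2. The log2 fold change of HSPA5 was 3.31 ± 0.73 (edgeR adjusted p = 0.0385). It was 1.72 for ERN1, 0.66 for EIF2AK3 and -0.65 for ATF6, the genes of sensors that BiP binds. For ATF6B, the relative of ATF6, it was 1.04.

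HERPUD1, a scaffold of ER-associated degradation, stood at 116, 97.4 and 94.0 CPM in controls and 737, 805 and 364 CPM in heat (edgeR adjusted p = 0.0276). PDIA4, a disulfide isomerase, rose from 219 ± 83.4 to 1030 ± 553 CPM (SD, n = 3; edgeR adjusted p = 0.0484), and CRELD2, an ER-resident stress protein, also rose (log2 fold change 2.33 ± 0.57, edgeR adjusted p = 0.0444). DERL3, a component of ER-associated degradation, had 3 reads in the controls together and 547 in heat, and it rose as well (edgeR adjusted p = 0.0271). SEC62, a translocation protein also known as an ER-phagy receptor, fell, with 487, 492 and 381 CPM in controls and 143, 123 and 191 CPM in heat (log2 fold change -1.58 ± 0.35, edgeR adjusted p = 0.0383). Like ATF6, SEC62 was lower in every heat library than in every control, as were 16.8% of all tested genes. In each of the 4 fits without control 2, control 3, heat 1 or heat 2 no gene of these lists passed in edgeR and no target passed in limma-voom, while DESeq2 called 7 of the 34 targets higher in each. Over all genes edgeR then called 0, 0, 7 and 6, and DESeq2 called 4.98, 6.11, 4.23 and 4.38% higher. Without control 1 edgeR called 13 of the 34 targets higher and 1 lower, against 19.6 and 12.3% of all genes. Without heat 3 it called 10 higher and 3 lower, against 18.4 and 17.7%. PDIA4 also missed the threshold with RLE factors, a filter of 10 CPM in 3 libraries and both forms of the authors' signal (adjusted p from 0.0506 to 0.0514).

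**Figure D4:**
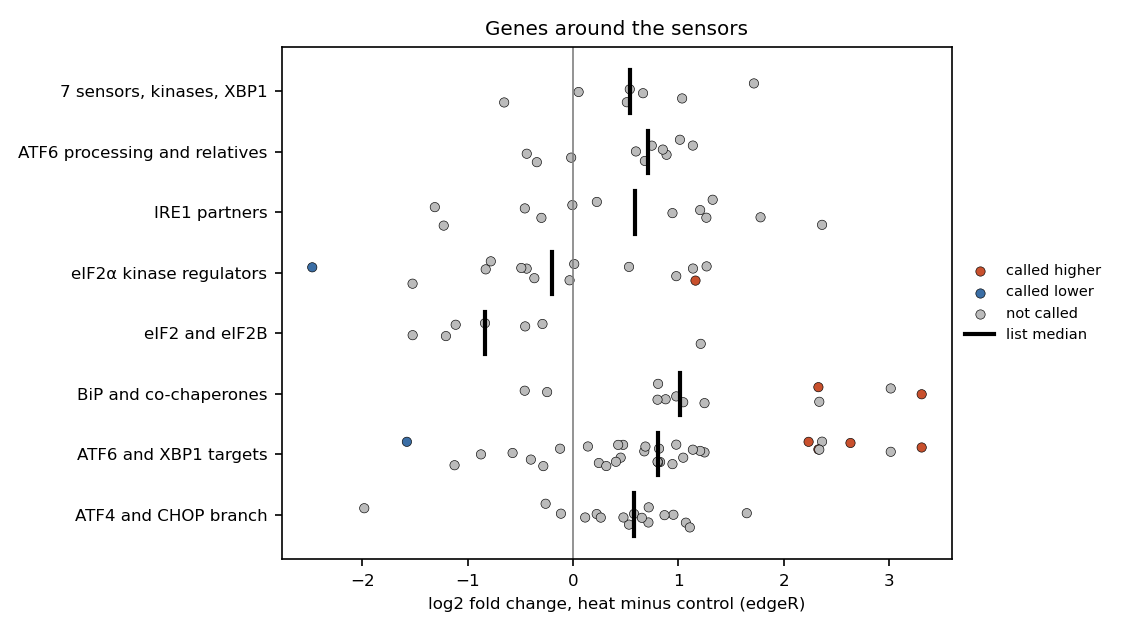
Log2 fold change, heat minus control, of the tested genes in 8 lists, 1 point per gene, with the list median as a black bar and DERL3 (at 7.11) beyond the axis and not drawn. None of the 7 sensor, kinase and XBP1 genes was called, while 5 targets of ATF6 and XBP1, DERL3 among them, were called higher and SEC62 was called lower.

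Of 17 tested genes below the eIF2alpha kinases, the branch of ATF4 and CHOP, none passed, against 11% of all tested genes. In this branch 14 genes had a log2 fold change above 0, against 52.1% of all tested genes (median 0.58, against 0.05). ATF4, whose translation the kinases favour, stood at 103, 173 and 182 CPM in controls and 140, 142 and 253 CPM in heat, with no separation (log2 fold change 0.23 ± 0.39, edgeR adjusted p = 0.703). DDIT3, the gene of CHOP, was even in the controls at 18.7, 21.3 and 19.7 CPM and stood at 66.4, 99.0 and 21.9 CPM in heat. As for ERN1 and EIF2AK3, heat 3 was close to the controls, and DDIT3 did not pass (log2 fold change 1.65 ± 0.52, edgeR adjusted p = 0.0722). NUPR1, a small stress protein, had the largest negative estimate of the list, at -1.98 ± 0.69 (edgeR adjusted p = 0.0930), and its control level came from control 2 and control 3 (169 and 159 CPM against 20.4 CPM in control 1). Without heat 3 edgeR called 4 genes of this branch higher, against 18.4% of all genes. Without control 1 it called 2 higher and 1 lower, against 19.6 and 12.3%.

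**Figure D5:**
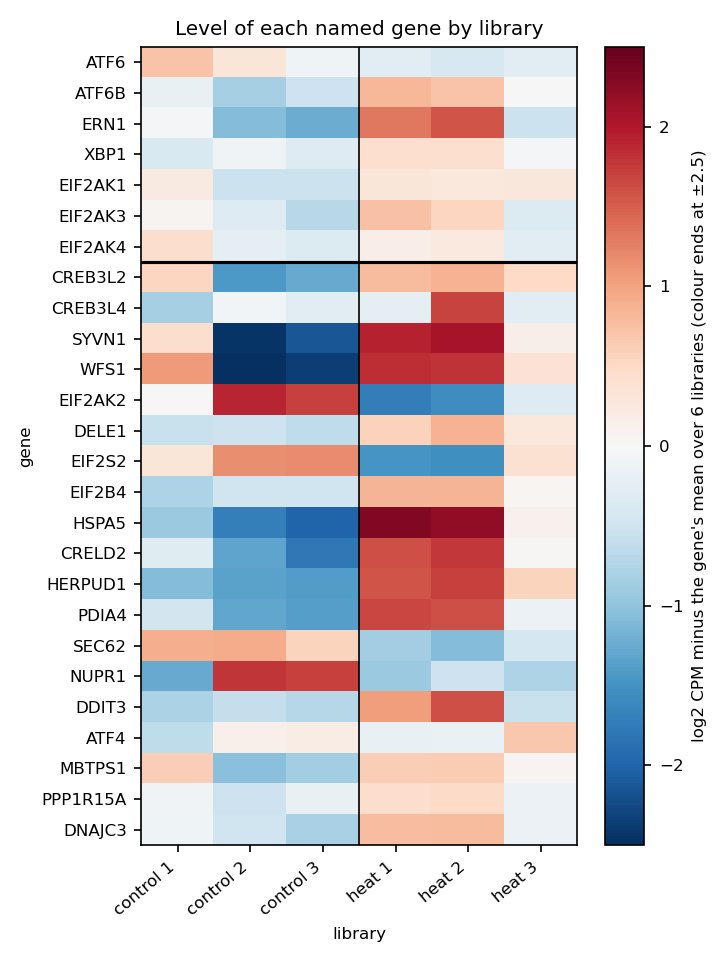
Level of the named genes in each library as log2 CPM minus the gene's own mean over the 6 libraries (red above, blue below, DERL3 left out), with the 7 sensors, kinases and XBP1 above the line. ERN1, ATF6B and EIF2AK3 are highest in heat 1 and heat 2, as HSPA5 is, ATF6 is highest in control 1, and heat 3 lies apart from heat 1 and heat 2 for HSPA5 and ERN1.

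The 7 genes had between 228 and 8749 reads per library, and counting error alone gives a coefficient of variation of 6.62% at the lowest of these. The coefficient of variation between libraries of a group ran from 11.14 to 49.0% in controls and from 1.42 to 58.7% in heat. With control 1 and heat 3 left out together, the test called 6 of the 7 higher and 1 lower. It then called 79.6% of all tested genes, and what remained in each group was a pair of near-identical libraries. The sign of the estimate was then the same as with all libraries for each of the 7, with log2 fold changes of -0.47 for ATF6 and 2.58 for ERN1.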

How the data were processed

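The submitters' processing notes name FastQC 0.11.4, STAR, Trim Galore and the Sscrofa11.1 build. The sources used here do not give the counter, its strand setting or the annotation release. The authors deposited raw counts per Ensembl gene for 6 libraries and a normalized signal. The authors' signal covers 13298 genes and equals the count over a size factor of each library. Multiplying back gave whole reads for 100% of values (tolerance 1e-06), equal to the raw counts.

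Genes passing edgeR's filterByExpr (minimum count 10) were tested by edgeR 4.0.16 (R 4.3.3), quasi-likelihood F test, two-sided, TMM factors, robust dispersion, Benjamini-Hochberg adjustment over 14242 genes, called below 0.05. The SE of a log2 fold change is its size over the root of F. Log2 CPM used a prior count of 2. DESeq2 1.42.0 and limma 3.58.1 were alternatives, as were 3 other scalings, 2 other filters, limma on the log2 of the authors' signal plus 1 or 0.5, the recovered reads, a replicate block, and leaving out or summing libraries. DESeq2 and limma-voom without each library were added after seeing the data. The test was checked on simulated data.

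Symbols came from a reference table for 15623 identifiers, and coordinates from RefSeq genes of Sscrofa11.1 matched by symbol. The 7 genes and all lists were chosen with earlier results of these data known. Of the lists, called members were named, or the 2 with the largest estimates, plus HSPA5, HERPUD1, ATF4, DDIT3, EIF2AK2, MBTPS1, MBTPS2, PPP1R15A and DNAJC3. Overlapping neighbours, markers and EIF2A were named outside this rule.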

Additional observations from a re-analysis of the deposited data

How the results depend on the processing

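With the settings of the report, 956 of all tested genes were called higher and 615 lower. The count of the 7 called, 0 in each direction, was kept under 3 other scalings, limma-voom, both forms of the authors' signal, the recovered reads, a filter of 10 CPM in 3 libraries and the summing of near-identical libraries. ERN1 was called with no filter, DESeq2 and the replicate block (1 gene higher in each). These settings called 1607 of 25766, 2146 of 17739 and 2104 of 14242 tested genes higher. With control 1 and heat 3 left out together, 6 of the 7 were called higher and 1 lower, against 79.6% of all tested genes in either direction.

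Over all genes, the calls higher were 1583 with library totals only, 1607 with no filter, 532 with the filter of 10 CPM, 2146 with DESeq2, 6285 without control 1 and heat 3, and 2 with near-identical libraries summed. The calls lower were 396 with the filter of 10 CPM, 1671 with DESeq2, 5857 without control 1 and heat 3, and 0 with near-identical libraries summed. Library totals only moved the median log2 fold change of all genes by 0.12 and the share of higher calls from 60.9 to 79.2%. Relative to that shift the estimates of the 7 genes kept their direction.

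Leaving out each library, with edgeR, DESeq2 or limma-voom, gave 0 to 3584 genes higher, 0 to 3369 lower, 0 to 4 of the 7 higher and 0 lower. The 4 came from limma-voom without heat 3, which called 3399 of 15325 tested genes higher. Over these fits the log2 fold change of ATF6 lay between -0.89 and -0.43 and that of ERN1 between 1.20 and 2.22. That of EIF2AK4 lay between -0.15 and 0.31, and that of ATF4 between -0.16 and 0.37. The estimate of EIF2AK4 was also negative with DESeq2 (-0.0051) and with near-identical libraries summed (-0.18), and that of ATF4 without control 1 and heat 3 (-0.35). The cause was not tested.

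Replicate numbers are shared by the groups, and the deviations of same-numbered libraries correlated at 0.30, -0.23 and 0.22. Deviations from a mean of so few libraries depend on one another, so these values cannot tell whether the numbers pair the samples. With the replicate block, 2104 genes were called higher and 1300 lower. Control 1 and control 3 correlated best with the heat library of their own number, and control 2 did not.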
